A study of Mus musculus with 6 samples.

Results

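W4 is the wild type mouse embryonic stem (ES) cell line of a series of 6 expression arrays, and its baseline transcriptome was read from the 2 arrays labelled wild type. The other 4 arrays came from ES cells heterozygous (NcGFP ki/+) or homozygous (NcGFP ki/ki) for a knock-in named NcGFP, with 2 arrays each, and no comparison with them is made here. W4 carried no knock-in by its label, and each genotype was sampled in separate experiments per the series design text, so the 2 W4 arrays are replicates of a single line. All 3 genotypes were grown in DMEM with fetal calf serum, non-essential amino acids, β-mercaptoethanol and the cytokine LIF, on diluted plates labelled EMFI, an abbreviation that the labels do not spell out. A gene's level is the mean log2 intensity of both W4 arrays, taken from its brightest probe set among those that list a single gene symbol. This gave 18193 genes from 34945 single-symbol probe sets.

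ES cells are derived from the inner cell mass of the blastocyst and can form all tissues of the embryo. Their undifferentiated state rests on a set of transcription factors with Oct4 (Pou5f1), Sox2 and Nanog at its core, and on a further set of factors typical of the naive state before implantation. In mouse ES cultures LIF acts through the receptor chains Lifr and gp130 (Il6st) on Janus kinases and the transcription factor Stat3, while FGF4 made by the cells themselves drives ERK signalling towards differentiation.

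The 2 arrays gave close to the same level for nearly every gene. The median absolute difference between them was 0.0991 on the log2 scale over all genes, the largest was 0.86, and 0 of 18193 genes were over 2-fold apart. The correlation between the arrays over genes was 0.998, as a description, since genes are not independent replicates. Median intensities over all 45101 probe sets were 52.1 in replicate 1 and 52.7 in replicate 2, with a highest value of 21153 and 22283. Bacterial transcripts added at rising amounts kept their order, from a mean log2 intensity of 8.60 and 8.59 for bioB to 13.86 and 13.84 for cre in replicates 1 and 2, and 12 probe sets of the r2-Bs series for Bacillus transcripts lay between 2.78 and 3.87. Of other Bacillus probe sets, the highest were PheX-3 at 5.80 and 5.75 and ThrX-3 at 4.99 and 4.87. Arrays give no read depth, and the precision is limited by the number of arrays.

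A probe set that finds no target still gives a signal, so a bound for silent genes was taken from 111 genes of families used in sense organs and hair. These were olfactory, vomeronasal and taste receptors and keratin-associated proteins, whose levels had a median of 4.42 and ranged between 2.73 and 8.13. Their 95th percentile was 6.38 on the log2 scale, an intensity of 83.4. Of all genes, 10126 (55.7%) lay above this bound and 8067 (44.3%) at or below it. On the single arrays 9948 genes were above it in both and 389 in 1 array only. The count rests on the bound, since 7441 genes exceeded the 99th percentile of the silent families, 15583 exceeded their median and 16490 exceeded a fixed log2 of 4. It also rests on the probe set rule, since 4230 genes had both a probe set above the bound and one at or below it. Most silent-family genes had a single probe set, while 9010 of all genes had several. Taking the brightest can thus favour genes with several probe sets, and 8342 genes were above the bound with probe sets averaged. A gene at or below the bound is described as at the silent families' level, which does not show that it has no transcript. Where the lowest member of a family lies there, it is lowest in signal only, with no order among such genes.

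**Figure D1:**
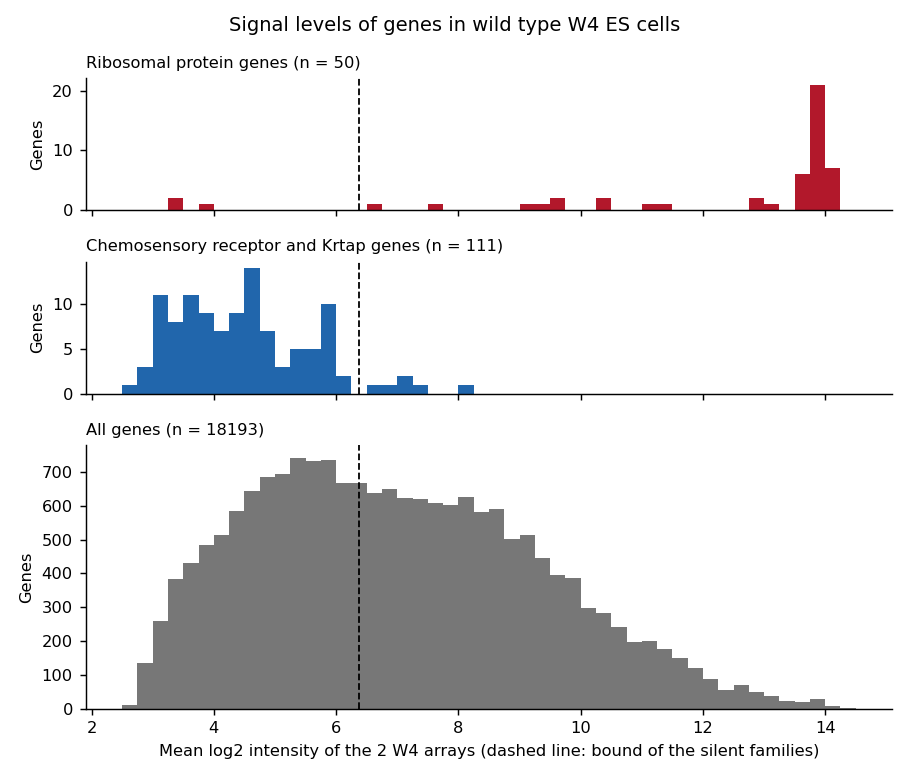
Histograms of gene levels in W4 cells (x axis: mean log2 intensity of the 2 arrays; y axis: number of genes) for ribosomal protein genes, for chemosensory receptor and Krtap genes, and for all genes. The dashed line is the bound at 6.38, and most ribosomal protein genes sit far right of it while 6 of 111 receptor and Krtap genes exceed it.

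Levels of different genes can be ordered only roughly, because each probe set binds its target with its own strength. For the 9010 genes with several single-symbol probe sets, the brightest and the next differed by a median of 1.02 on the log2 scale, with quartiles of 0.434 and 1.98. For genes above the bound this median was 1.24. The value of 1.02 is called the probe set spread here, and since it is a median, probe sets of a single gene often differ by more, whatever the agreement between the arrays. The median level of all genes was 6.78, with quartiles of 5.15 and 8.64. A level above 10.20 placed a gene in the top decile (10.0% of genes), 385 genes exceeded 12 and 11 exceeded 14.

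The brightest genes of W4 cells were those of the translation machinery. Of the top 20 genes, 15 encoded cytosolic ribosomal proteins, as did 30 of the top 50 and 35 of the top 100. Tmsb10, an actin-sequestering thymosin, stood at the head with 14.27 and 14.29 in replicates 1 and 2. Eef1a1, which delivers aminoacyl-tRNA to the ribosome, had 14.25 and 14.26. The ribosomal protein genes Rpl41, Rplp2, Rpl37a, Rps2, Rps29, Rpl7a, Rps28, Rpl4, Rplp0, Rps24, Rps4x, Rpl38, Rps3a1, Rps20 and Rps10 lay between 13.93 for Rps10 and 14.23 for Rpl41. The remaining members were Tpt1 (14.22), a growth-related protein also called TCTP, the chaperone Hsp90aa1 (13.98) and Dppa5a. The other probe set of Tpt1 was at 3.88, below the bound, and Tmsb10, Hsp90aa1, Rps4x, Rps20 and Rps24 also had probe sets below it. All 20 lay within 1.02 of each other, so no order among them holds beyond the probe set spread.

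Dppa5a, an RNA-binding protein named for its presence in pluripotent cells, was the single gene of the top 20 that belongs to the pluripotency lists. It had 14.14 and 14.11 in replicates 1 and 2, among the ribosomal protein genes. Of the 50 ribosomal protein genes measured, 41 were in the top decile of genes and 3 were at or below the bound, against 10.0% and 44.3% of all genes. Their median was 13.76 against 6.78 for all genes. Those 3, named after their values were seen, were Rpl3l (3.95), a relative of Rpl3 known from striated muscle, Rps15a-ps6 (3.32), a pseudogene by its symbol, and Rps16 (3.45). Rps16 was read from 1 probe set, and 2 further probe sets list it together with other genes and were left out, so its low value is that of a probe set and not shown to be that of the gene.

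The promoters of 7 genes are printed here, since the text turns on which member of a family was used and how promoter sequence went with level. The pairs are Pgk1 and Pgk2, glycolytic enzymes of all cells and of sperm cells, Hmgb2 and Hmgb4, chromatin proteins of dividing cells and of testis, and Lin28a and Lin28b, which block maturation of the let-7 microRNA, with Sox2 as a pluripotency factor. Each stretch is the 250 bases before the gene's start from RefSeq (GRCm38.p6), written 5′ to 3′ on the gene's strand, with every CG dinucleotide in capitals.
Pgk1: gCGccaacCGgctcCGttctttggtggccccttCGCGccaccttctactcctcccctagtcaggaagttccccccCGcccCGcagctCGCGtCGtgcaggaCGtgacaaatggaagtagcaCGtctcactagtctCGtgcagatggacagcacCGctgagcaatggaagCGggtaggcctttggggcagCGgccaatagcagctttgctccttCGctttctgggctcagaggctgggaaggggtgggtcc
Pgk2: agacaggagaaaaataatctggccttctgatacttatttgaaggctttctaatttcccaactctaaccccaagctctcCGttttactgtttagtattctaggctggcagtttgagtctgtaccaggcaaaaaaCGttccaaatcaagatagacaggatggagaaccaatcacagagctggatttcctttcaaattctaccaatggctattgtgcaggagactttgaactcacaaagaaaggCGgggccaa
Hmgb2: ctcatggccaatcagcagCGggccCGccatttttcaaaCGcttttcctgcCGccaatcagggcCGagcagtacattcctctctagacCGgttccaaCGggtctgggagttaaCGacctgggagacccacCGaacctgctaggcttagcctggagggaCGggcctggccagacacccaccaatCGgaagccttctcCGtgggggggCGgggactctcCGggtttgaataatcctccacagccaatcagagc
Hmgb4: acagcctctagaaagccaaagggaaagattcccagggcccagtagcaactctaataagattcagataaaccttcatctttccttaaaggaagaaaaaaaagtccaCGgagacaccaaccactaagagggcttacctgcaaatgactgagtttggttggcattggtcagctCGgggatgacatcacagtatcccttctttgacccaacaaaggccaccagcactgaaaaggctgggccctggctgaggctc
Lin28a: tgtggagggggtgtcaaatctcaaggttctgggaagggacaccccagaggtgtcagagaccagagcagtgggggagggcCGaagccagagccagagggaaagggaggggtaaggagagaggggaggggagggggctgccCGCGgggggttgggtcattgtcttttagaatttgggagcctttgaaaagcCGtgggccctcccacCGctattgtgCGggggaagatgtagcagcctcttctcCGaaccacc
Lin28b: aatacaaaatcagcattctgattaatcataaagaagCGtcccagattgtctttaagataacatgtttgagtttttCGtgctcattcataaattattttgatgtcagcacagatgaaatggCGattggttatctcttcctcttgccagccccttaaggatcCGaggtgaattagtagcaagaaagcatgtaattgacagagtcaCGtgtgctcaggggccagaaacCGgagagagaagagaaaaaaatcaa
Sox2: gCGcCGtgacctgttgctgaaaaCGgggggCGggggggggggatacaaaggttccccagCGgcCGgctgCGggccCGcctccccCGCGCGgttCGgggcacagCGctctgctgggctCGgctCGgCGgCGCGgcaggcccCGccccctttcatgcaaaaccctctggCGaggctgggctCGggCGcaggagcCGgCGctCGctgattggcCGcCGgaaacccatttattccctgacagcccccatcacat
The windows lie at chrX:106186850-106187099 (plus strand) for Pgk1, chr17:40208610-40208859 (minus) for Pgk2, chr8:57511593-57511842 (plus) for Hmgb2, chr4:128260896-128261145 (minus) for Hmgb4, chr4:134018817-134019066 (minus) for Lin28a, chr10:45470202-45470451 (minus) for Lin28b and chr3:34649745-34649994 (plus) for Sox2. The stretch before Pgk1, a gene at 13.17, holds 17 CG dinucleotides, against 3 before Pgk2 at 4.25. Hmgb2 at 12.69 has 14, against 2 for Hmgb4 at 3.44. The LIN28 pair differs from these, with 7 before Lin28a at 11.38 and 6 before Lin28b at 3.34, and Sox2 at 12.18 has 27.

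All 10 core pluripotency genes were above the bound and 9 were in the top decile, against 55.7% and 10.0% of all genes, and their median level was 11.89. Pou5f1, the POU factor Oct4, had 12.89 and 12.85 in replicates 1 and 2. Sox2, its HMG box partner, had 12.26 and 12.09, and the homeodomain factor Nanog had 12.06 and 11.95. These 3 core factors therefore all exceeded 11.9 on both arrays. Trim28, a corepressor of endogenous retroviruses, was the brightest of the list at 12.97 and 13.05. Utf1, a chromatin protein of undifferentiated cells, had 11.97 and 11.89, the zinc finger factor Sall4 had 11.84 and 11.88, and Dppa2, a SAP domain protein, had 11.90 and 11.80. Its partner Dppa4 had 11.08 and 10.99 and the RNA-binding protein Lin28a had 11.35 and 11.40. The zinc finger factor Zfp281 was the lowest at 9.77 and 9.74, outside the top decile. Utf1 had further probe sets at 8.30 and 5.69, the last below the bound, and Lin28a had another at 8.03. The levels of Utf1 and Lin28a thus rest on which probe set is read.

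The naive pluripotency genes covered a wider range. Of 16 listed, 15 were measured, all above the bound, with 8 in the top decile and a median of 10.24. The shares of all genes were 55.7% and 10.0%. Besides Dppa5a, the top decile held Fbxo15, an F-box protein and Oct4 target (11.34 and 11.18 in replicates 1 and 2), Klf5 (11.07 and 10.92), Dppa3, a maternal factor also called Stella (10.99 and 10.83), Klf2 (10.80 and 10.59), Klf4 (10.57 and 10.44), Nr0b1, an orphan nuclear receptor (10.54 and 10.42) and Esrrb, another one (10.35 and 10.13). Below them came Zfp42, the zinc finger protein Rex1, with 9.99 and 9.86 and Tfcp2l1 with 9.74 and 9.68. Zfp57, which guards imprinted methylation, had 9.04 and 8.86. The factors Tbx3 (8.41 and 8.32), Nr5a2 (8.06 and 7.99), Prdm14 (7.33 and 7.03) and Gbx2 (7.04 and 6.87) had the lowest levels of the list. Tfcp2l1 had further probe sets down to 3.32, Tbx3 down to 4.24 and Klf5 down to 4.72, so their levels rest on which probe set is read.

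Primed epiblast genes, typical of the epiblast after implantation, had a median of 7.62. Of 13 measured genes 11 were above the bound and 1 was in the top decile, against 55.7% and 10.0% of all genes. The gene in the top decile was Dnmt3b, a de novo DNA methyltransferase, with 12.61 and 12.67 in replicates 1 and 2. Pou3f1 (Oct6) had 9.99 and 9.81 and Zic5 had 8.90 and 8.74. Germ cell genes had a median of 7.42 with 9 of 14 above the bound, near the 55.7% of all genes, led by the X-linked homeobox gene Rhox5 (11.84 and 11.76), Tfap2c (10.18 and 10.09) and Tex19.1 (9.67 and 9.59). Of genes that mark the rare 2-cell-like state of ES cultures, 6 of 12 listed genes were measured. All 6 were at or below the bound, against 44.3% of all genes, among them Zfp352 at 5.70, Usp17la at 5.09 and Arg2 at 4.37.

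None of the 5 lists for germ layers and extraembryonic lineages had a gene in the top decile, where 10.0% of all genes lay. The shares of trophectoderm and primitive endoderm genes above the bound were near the 55.7% of all genes, and those of the other 3 lists were lower. Mesoderm genes had 3 of 14 above it (median 5.83), neuroectoderm 4 of 13 (5.55), definitive endoderm 1 of 9 (4.93), primitive endoderm 7 of 15 (6.33) and trophectoderm 8 of 15 (6.90). The brightest trophectoderm genes were Tfap2c (10.14), which is also a germ cell gene, and the simple epithelial keratins Krt8 (8.50) and Krt18 (8.34). The brightest primitive endoderm genes were the basement membrane genes Lamb1 (9.69), Col4a1 (8.72) and Col4a2 (8.53), which fibroblasts also make. Of the genes fixed as defining markers, 3 of 7 were above the bound for trophectoderm (Tfap2c, Eomes and Hand1), 2 of 7 for primitive endoderm (Dab2 and Pdgfra), 1 of 7 for neuroectoderm (Nes) and 3 of 6 measured for mesoderm (Eomes, Kdr and Mixl1). Those at or below it included Gata4 at 5.52, Sox17 at 4.93, Elf5 at 4.33 and Mesp1 at 6.04, named after their values were seen. In neuroectoderm the brightest were Olig2 (9.10), Tubb3 (8.48) and Nes (8.45), in mesoderm Kdr (6.91), Mixl1 (6.45) and Foxf1 (6.43), and in definitive endoderm Hhex (6.63), Cxcr4 (5.96) and Foxa2 (5.70).

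For each of 6 lists of adult tissue genes, the share above the bound was under the 55.7% of all genes. Striated muscle genes had 1 of 14 above the bound (median 4.80), eye and testis genes 1 of 10 (4.85), pancreas and gut genes 1 of 9 (4.98), liver genes 2 of 10 (5.63), blood genes 3 of 9 (6.21) and neuron genes 5 of 11 (6.26). The brightest of each were Actn3 (6.95), Ckm (6.11) and Mb (6.06) for muscle, Prm1 (7.36), Cryaa (6.33) and Prm2 (5.79) for eye and testis, and Ins2 (7.30), Prss2 (6.32) and Sst (5.94) for pancreas and gut. They were Apoa2 (8.48), Ttr (7.21) and Apoa1 (6.33) for liver, and Csf1r (7.02), Cd3e (6.68) and Cd4 (6.48) for blood. The neuron list differed from these by 2 bright genes, since Stmn2, a microtubule regulator of growth cones, had 11.11 and 10.88 in replicates 1 and 2 and the neurofilament gene Nefl had 9.96 and 9.98. The next, the synaptic vesicle gene Syn1, was at 6.74.

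**Figure D2:**
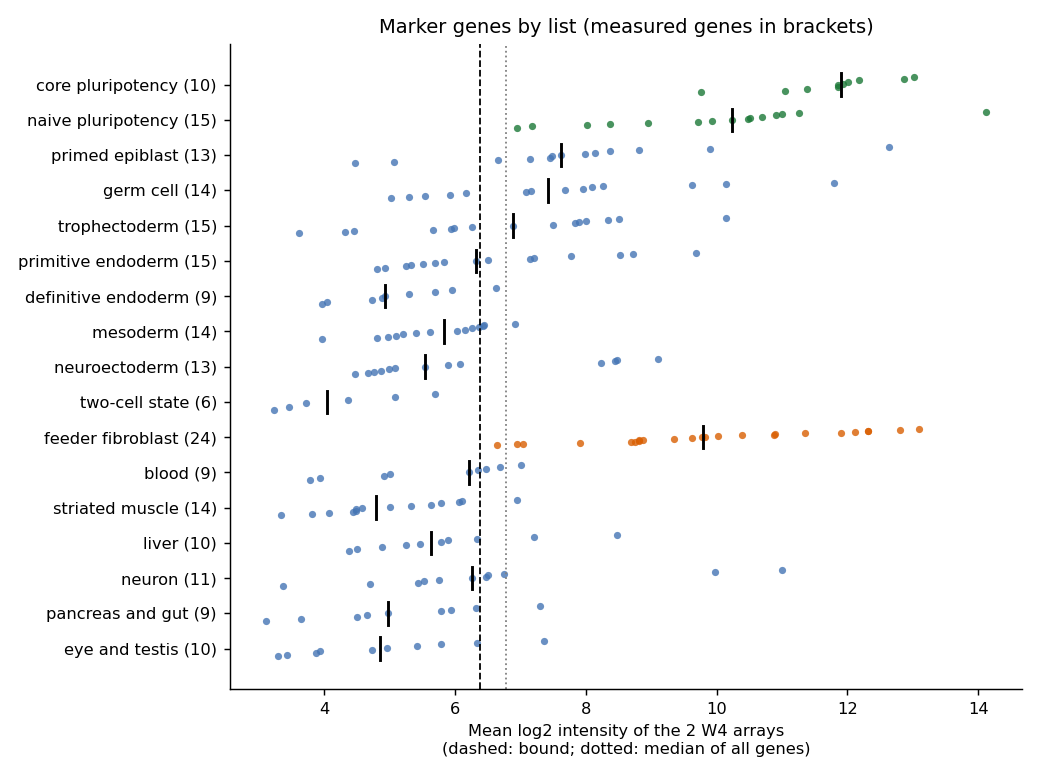
Mean log2 intensity of the 2 W4 arrays (x axis) for every measured gene of 17 marker lists (rows, number of genes in brackets), with a black bar at the list's median, a dashed line at the bound of 6.38 and a dotted line at the median of all genes, 6.78. The core and naive pluripotency lists (green) and the feeder fibroblast list (orange) lie wholly right of the bound, while the 2-cell state lies wholly left of it.

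Genes of fibroblasts stood out among the lists of other cell types. All 24 were above the bound and 10 were in the top decile, against 55.7% and 10.0% of all genes, with a median of 9.80. Vim, an intermediate filament of mesenchymal cells, had 13.01 and 13.17 in replicates 1 and 2, the smooth muscle actin Acta2 had 12.71 and 12.89, and the matrix protein Sparc had 12.26 and 12.38. Other probe sets of Acta2 were at 4.13 and 3.82, below the bound, so its level rests on which probe set is read. Among the 12 genes fixed as defining fibroblast markers, all were above the bound, from Lum at 6.65 to S100a4 at 12.32, and the collagen genes Col1a2 and Col1a1, named after their values were seen, had 10.90 and 9.78. The summed intensity of these 12 was 13135 in replicate 1 and 14994 in replicate 2, against 48727 and 46540 for the 10 ES cell markers. In bulk samples fewer cells of a type and less RNA per cell cannot be told apart, and the part of other cells on the plates in any level given here was not tested.

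The 2 W4 arrays differed in these lists, though by little. Of the 24 fibroblast genes, 23 were higher in replicate 2 than in replicate 1, by a median of 0.17 on the log2 scale and by up to 0.42 for Timp3. All 15 naive pluripotency genes were lower in replicate 2, with a median difference of -0.15. Over all genes 42.4% were higher in replicate 2, and the median difference was -0.03. Among genes above the bound these were 36.3% and -0.04. Some other lists leaned the same way as the naive genes, so this direction was not particular to them. Of 17 proteasome core genes 16 were lower in replicate 2 (median difference -0.06). So were 13 of 15 genes of the list for the MCM helicase and the origin recognition complex, which also holds Cdt1 and Gmnn (-0.07). Of the 5 genes furthest apart, 4 were below the bound, namely Impg1 (4.23 and 5.09 in replicates 1 and 2), Platr22 (5.22 and 4.42), Hmx2 (4.48 and 3.69) and Ifna1 (5.38 and 6.12). The fifth, Col12a1, a fibril-associated collagen, had 7.05 and 7.81. These differences have no test, since they set 1 array against 1.

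**Figure D3:**
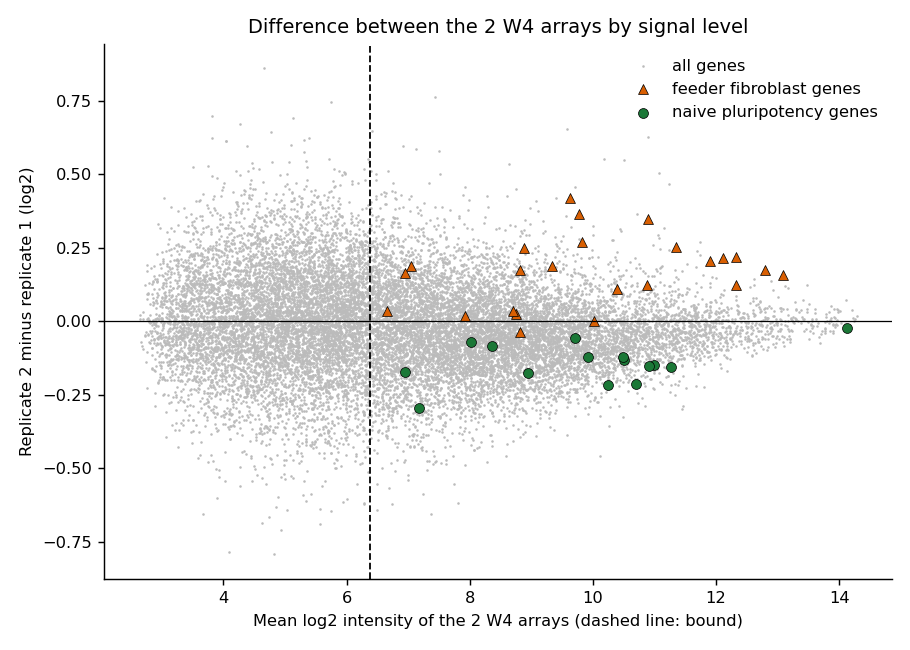
Difference between the W4 arrays (replicate 2 minus replicate 1, log2; y axis) by mean log2 intensity (x axis) for all genes (grey), with fibroblast genes as orange triangles, naive pluripotency genes as green circles and the bound as a dashed line. The fibroblast genes lie above 0 except 1, and all naive genes lie below 0.

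Among 180 genes of 16 transcription factor families, the 10 brightest were Pou5f1, Sox2, Sall4, Klf9, Mycn, Klf5, Sox4, Klf2, Klf4 and Id3. Sall4 led its family of 4, with Sall1 next at 9.40 and Sall3 lowest at 5.77. Klf9, a factor known for its induction by hormones, had 11.84 and 11.82 in replicates 1 and 2, but its 7 probe sets ranged between 4.91 and 11.83. Its lead over Klf5 was 0.83, within the probe set spread, and the dimmest of 16 Krüppel-like factors was Klf17 at 5.30. Mycn had 11.77 and 11.67 against 9.61 for Myc, but its other 2 probe sets were at 8.63 and 7.47, so this order rests on which probe set is read. Sox4 had 10.90 and 10.88 as the second of 19 SOX factors, 1.28 under Sox2, and Sox30 was lowest at 3.26. The next probe set was at 8.04 for Sox4, 6.63 for Klf5 and 9.25 for Sall4, so their places also rest on which probe set is read. Id3 (10.50 and 10.48) and Id2 (10.47 and 10.46), inhibitors of bHLH factors and BMP targets, were apart by 0.02, within the probe set spread, and Id4 was the lowest of the 4 at 8.45.

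The shares of HOX, GATA and T-box factors above the bound were lower than the 55.7% of all genes. Of 33 HOX genes 9 were above the bound, with Hoxa5 at 7.59 and Hoxa3 at 7.31 as the brightest and Hoxa2 lowest at 3.33. Of 6 GATA factors 1 was above it, Gata2 at 8.01, ahead of Gata6 at 5.83, and Gata3 was lowest at 4.46. Of 14 T-box factors 3 were above it, led by the naive factor Tbx3 at 8.36 and Eomes at 7.50, with Tbr1 lowest at 2.87. Forkhead factors had 17 of 37 above it, nearer the share of all genes, led by Foxp1 at 10.08 and Foxn2 at 9.57, with Foxd1 lowest at 3.81. Of the POU factors 5 of 11 were above it, likewise nearer that share. Pou5f1 led by 2.97, with Pou3f1 as the second at 9.90 and Pou4f3 lowest at 3.98. All 8 E2F cell cycle factors were above the bound, and the first 2, E2f8 at 9.24 and E2f5 at 9.12, overlapped between the arrays, while E2f2 was lowest at 6.79. The leads of Hoxa5, Tbx3 and Foxp1 over the next of their families were within the probe set spread.

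Receptors and transducers of LIF were all above the bound by their brightest probe set, where 55.7% of all genes lay. The 15 genes of LIF and STAT3 signalling had a median of 8.78, with 4 in the top decile, against 10.0% of all genes. The receptor chain Lifr had 8.43 and 8.52 in replicates 1 and 2 and its partner Il6st had 7.86 and 7.92. They were the 2 brightest of 5 receptor chains of the family, with Il6ra as the lowest at 6.63. Lifr and Il6st were apart by 0.59, within the probe set spread. Other probe sets of Lifr were at 5.71 and 4.25, below the bound. Il6st, Jak1, Jak2 and Stat3 also had probe sets below it, so these levels rest on which probe set is read. Jak1 at 8.18 was the brightest of 4 Janus kinases, with Tyk2 next at 7.38 and Jak3 lowest at 6.76. The lead of Jak1 over Tyk2 was 0.80, within the probe set spread. Stat3 was the brightest of 6 STAT factors with 9.04 and 9.11, 0.98 above Stat6 at 8.09 and so within the probe set spread, and Stat2 was lowest at 5.45. The brightest genes of the list were not receptors but Mcl1, an inhibitor of apoptosis, at 12.45, the kinase Pim3 at 10.69 and Klf4.

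In the FGF pathway the ligand Fgf4, all 5 receptor genes and the feedback genes were above the bound. Fgf4 was the brightest of 22 FGF ligands with 10.14 and 10.05 in replicates 1 and 2, 1.36 above Fgf7 at 8.74, and 5 of the 22 were above the bound, with Fgf2 the lowest at 3.40. Fgfr1 at 8.74 was the brightest receptor, ahead of Fgfrl1 at 8.06 by 0.68, within the probe set spread, and Fgfr3 was lowest at 6.75. All 14 measured genes of the 20 in the FGF4 and ERK list were above the bound, against 55.7% of all genes, with a median of 9.60. Its brightest members were the feedback inhibitor Spry2 at 11.31, the ETS factor Etv5 at 11.04 and the ERK phosphatase Dusp6 at 10.81, which are known as ERK targets.

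Of the other pathways, Nodal signalling had all 14 genes above the bound (median 8.87), BMP signalling 12 of 14 (8.95) and Wnt signalling 15 of 19 (8.07). The share of all genes was 55.7%. The Nodal co-receptor Tdgf1 (Cripto) had 12.28 and 12.23 in replicates 1 and 2, the Nodal inhibitor Lefty1 had 11.62 and 11.40, and the ligand Gdf3 had 10.91 and 10.83. Among BMP ligands only Bmp4, with 8.97 and 8.86, was above the bound in this set of 9, with Bmp7 next at 6.37 and Bmp2 lowest at 4.05 and 3.96. In the BMP list Id3, Id2 and Smad4 (10.12) were the brightest, and of 11 type I and II receptors Bmpr1a (9.08 and 9.02) and Tgfbr1 (9.03 and 8.96) overlapped between the arrays, while Bmpr1b was lowest at 4.83. Smad4, the common partner of the SMAD factors, was the brightest of its family of 8. Its lead over the inhibitory Smad7 at 9.34 was 0.78, within the probe set spread, and Smad9 was lowest at 4.66.

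For Wnt, the transducer β-catenin (Ctnnb1) was far above the ligands, at 12.83 and 12.84 in replicates 1 and 2. Of 19 Wnt ligands 4 were above the bound, against 55.7% of all genes. They were led by Wnt7b at 8.50 and Wnt7a at 7.50, and Wnt3 was the lowest ligand at 3.23. Wnt7b and Wnt7a were apart by less than the probe set spread. Among Frizzled receptors, Fzd7 with 10.21 and 10.23 led Fzd5 at 8.58, and Fzd4 was lowest at 5.86. Of the 3 measured TCF/LEF factors, Tcf7l1 (Tcf3), a repressor of Wnt targets and of pluripotency genes, had 10.36 and 10.27, 3.17 above Lef1 at 7.14.

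In 43 of the 70 families with several measured members, the brightest member led the next by more than 1.02 and their values did not overlap between the arrays. The count takes in families with a member not measured, such as the enolases without Eno1, high mobility group B proteins without Hmgb1 and TCF/LEF factors without Tcf7. Isozymes of glycolysis and respiration gave many of the leads. Pgk1 had 13.17 and 13.17 in replicates 1 and 2, against 4.25 and 4.24 for Pgk2, the isozyme of spermatogenic cells. Pdha1 had 11.68 and 11.71, against 3.94 and 3.82 for Pdha2, likewise of testis. Aldoa at 12.93 stood above Aldoc at 7.74, Pgam1 at 12.52 above Pgam2 at 6.91, Pkm at 13.29 above Pklr at 8.71, Cox4i1 at 13.20 above Cox4i2 at 5.82, and Cox6a1 at 13.72 above Cox6a2 at 6.51. In each pair the brighter is the widely used form and the other is known from muscle, liver, brain, lung or testis. Ldha at 12.88 and Ldhb at 11.40 were both in the top decile, with Ldhc lowest at 6.03. Hk2 at 10.34 led Hk1 at 8.65 and Hkdc1 was lowest at 6.74.

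The glucose transporters Slc2a3 (13.03 and 13.03 in replicates 1 and 2) and Slc2a1 (11.88 and 11.74) were the bright members of 11, with Slc2a2, the liver and β-cell form, lowest at 3.61. Eef1a1 stood 6.05 above Eef1a2 (8.20), the form of muscle and neurons. Cycs at 12.68 stood above the testis form Cyct at 8.21, and the ADP/ATP carriers Slc25a5 at 13.41 and Slc25a4 at 12.72 were both in the top decile, apart by less than the probe set spread. Gapdh, listed only by control probe sets and probe sets with several symbols, and Eno1 were not analysed here.

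**Figure D4:**
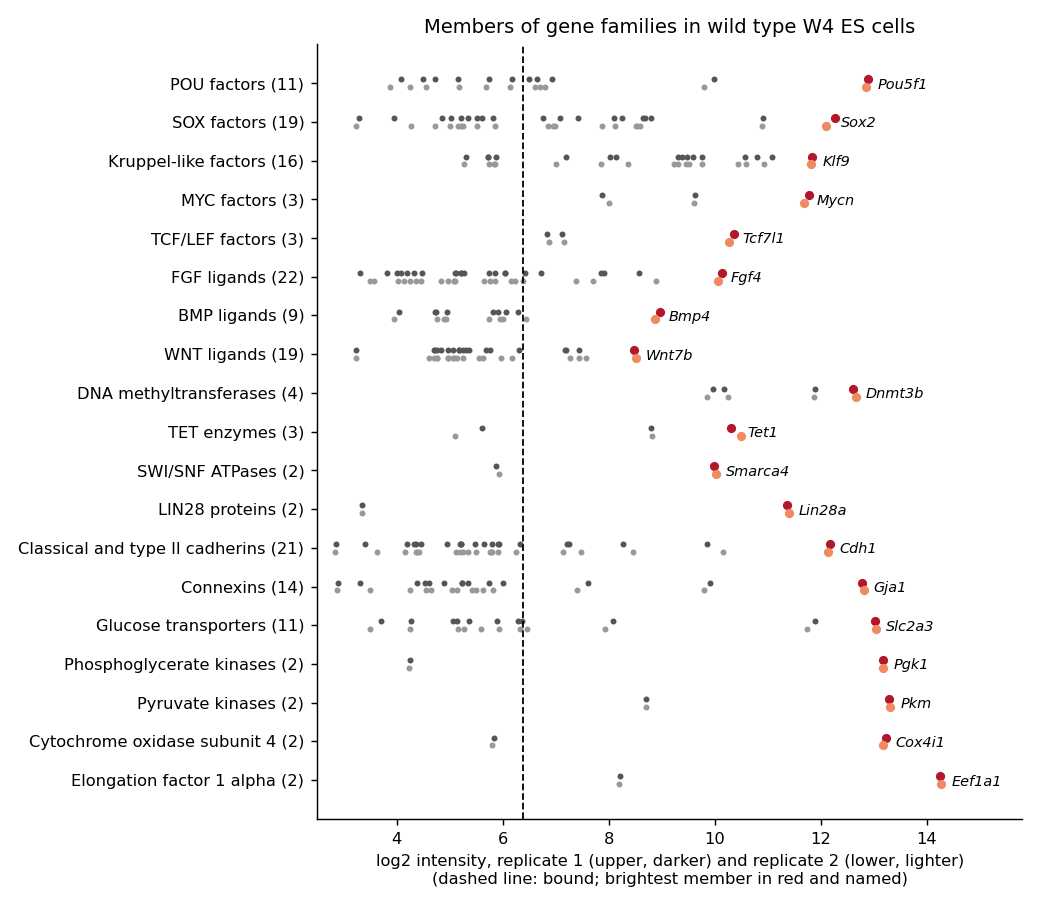
Levels of all measured members of 19 families (rows, number of members in brackets) in W4 cells, as log2 intensity in replicate 1 (upper, darker points) and replicate 2 (lower, lighter points), with the brightest member in red and named and the bound of 6.38 dashed. In the isozyme pairs the members lie far apart, whereas the brightest Krüppel-like factor and Wnt ligand have close followers.

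Cdh1, the classical E-cadherin of ES cells, had 12.17 and 12.13 in replicates 1 and 2 and led 21 cadherins by 2.14. Of the 21, 5 were above the bound, against 55.7% of all genes. The second was Cdh11, a mesenchymal cadherin, with 9.86 and 10.15, and Cdh18 was lowest at 2.85. Gja1 (connexin 43) had 12.77 and 12.82, ahead of Gjc1 at 9.85, and Gje1 was lowest of 14 connexins at 2.89. The claudins Cldn4 at 9.73 and Cldn6 at 9.49 were apart by less than the probe set spread, and Cldn11 was the lowest of 21 at 3.13. Among integrin chains, Itgav at 10.31 and Itga6 at 10.04 were the brightest α chains and Itgam the lowest at 3.78, and Itgb1 at 10.62 led Itgb5 at 9.30 among β chains, with Itgb6 lowest at 3.56.

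Of the enzymes that write and remove DNA methylation, 6 of 7 were above the bound, against 55.7% of all genes. All 4 DNA methyltransferase genes were above the bound and 3 were in the top decile, with Dnmt3b ahead of Dnmt3l, its catalytically inactive cofactor, by less than the spread. Dnmt3l had 11.89 and 11.88 in replicates 1 and 2, and Dnmt3a was lowest at 9.91. Tet1, which oxidises methylated cytosine, had 10.31 and 10.49, ahead of Tet2 at 8.81 by 1.59, while Tet3 was below the bound at 5.36. Of histone deacetylases of class I, Hdac1 at 12.06 and Hdac2 at 11.64 were bright and Hdac8 lowest at 6.58. Smarca4 (Brg1), the ATPase of the ES cell BAF complex, had 9.98 and 10.02, against 5.87 and 5.93 for its paralogue Smarca2 (Brm).

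Most listed genes of 3 chromatin complexes were above the bound, against 55.7% of all genes. All 20 measured genes of a list of 21 for the Polycomb complexes PRC1 and PRC2 were above it with a median of 9.52, as were all 13 of NuRD with 9.85, and 18 of 22 of BAF with 9.77. Rbbp4 at 12.99 and Rbbp7 at 12.88, histone binding proteins shared by PRC2 and NuRD, led both lists, followed by Eed at 11.89 in PRC2 and Hdac1 in NuRD. In BAF, Ss18 at 11.49, Actl6a at 11.30 and Smarcc1 at 11.04 were the brightest. Among CBX proteins of PRC1, Cbx7 at 9.18 was ahead of Cbx6 at 8.50 by less than the spread, and Cbx8, which that list does not hold, was at 5.48, below the bound. The LIN28 genes, RNA-binding proteins, were further apart, with 11.35 and 11.40 in replicates 1 and 2 for Lin28a, against 3.35 and 3.34 for Lin28b.

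Genes of cell division were bright too. A list of 15 genes for the MCM helicase and the origin recognition complex also holds genes outside both complexes, such as Cdt1 and Gmnn. All 15 were above the bound and 9 were in the top decile. The shares of all genes were 55.7% and 10.0%. The median of the 15 was 11.02, and the brightest were Mcm7 at 12.83, Mcm5 at 12.73 and Cdt1 at 12.52. The D cyclins Ccnd1 at 11.26 and Ccnd2 at 11.01 and the later cyclins Ccne1 at 11.57 and Ccna2 at 11.43 were within the probe set spread of each other in their families, and Ccnb3 was lowest at 2.99. All 7 CDK inhibitor genes were above the bound, with Cdkn1a (p21) at 11.09 ahead of Cdkn2b at 9.06 and Cdkn2a lowest at 6.97. Dkc1, a telomerase component, had 12.40, ahead of the telomere protein Terf1 at 9.63, and Pot1b was lowest of this set at 5.17.

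Promoter sequence was then set beside level, a feature that the level did not use. The CpG ratio, the number of CG dinucleotides over that expected from the C and G content, was taken from 300 base windows around gene starts (250 before and 50 after). Of 16052 protein-coding genes on the chromosomes of the promoter table, 13267 (82.7%) had a window, and genes were cut into deciles of level. Ordered from low to high, the median ratio was 0.267 in the lowest decile, 0.561 in the fourth, 0.761 in the sixth and 0.837 in the highest. Most of the rise thus lay below and around the bound, since among genes above the bound alone the highest and lowest deciles differed by 0.178, in place of 0.57 over all genes. Ribosomal protein genes had a median of 0.903 and the silent families one of 0.152. Printed pairs such as Pgk1 and Pgk2, with ratios of 0.723 and 0.291, followed this order, while Lin28a (0.351) and Lin28b (0.708) ran against it.

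Short motifs were counted in the same windows, on both strands except for the TATA box. The GC box letters GGGCGG stood in 70.1% of windows in the highest decile of level, 24.3% in the lowest and 35.9% of all 27025 promoters of the table, and in 55.9% over the measured genes of all deciles. The ETS letters CCGGAA stood in 36.1%, 6.20% and 15.2%, in the same order, in 22.6% over the measured genes, and in 60.5% of windows of ribosomal protein genes. The YY1 letters AAGATGGC gave 6.47%, 0.907% and 2.88%. The CCAAT letters differed little, with 41.5%, 38.9% and 37.9%. TATAAA, sought on the sense strand between 40 and 16 bases before the start, was less common in the highest decile, at 1.38%, than in the lowest, at 6.50%, with 2.22% of all promoters and 23.7% of the silent families' windows. The octamer ATTTGCAT, bound by POU factors, gave 1.02%, 2.34% and 1.75%. GGGCGG and CCGGAA each hold a CG, so their shares are not independent of the CpG ratio, and a match is a description of letters, not a bound site.

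**Figure D5:**
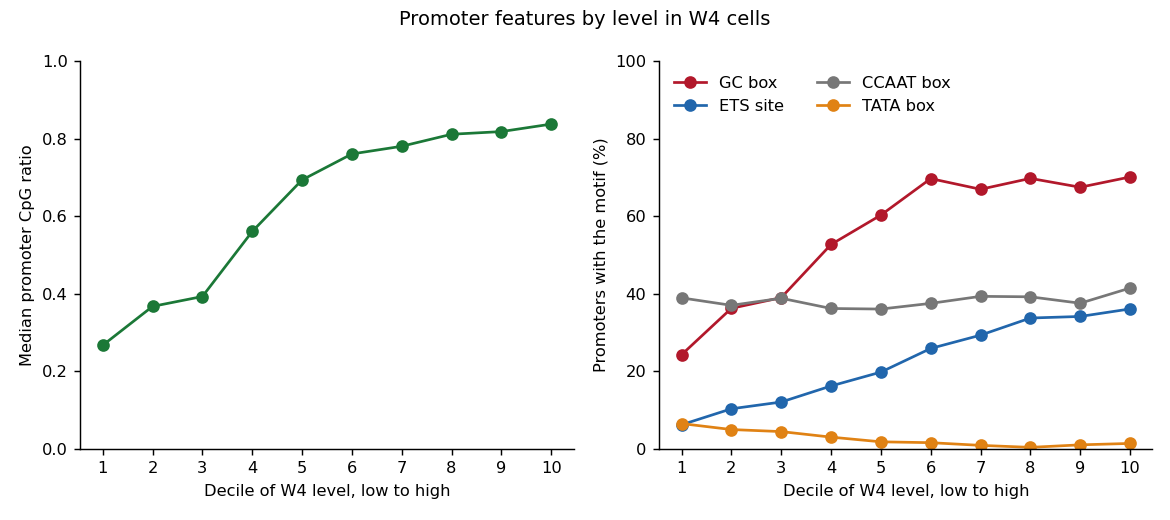
Left, median promoter CpG ratio (y axis) and right, percentage of promoters with 4 motifs (y axis), each by decile of W4 level from low to high (x axis). The CpG ratio and the ETS share climb across the deciles, the GC box share climbs up to the sixth, the CCAAT share differs little between deciles, and the TATA share is highest in the lowest decile.

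By chromosome, genes above the bound had a median level of 8.62 on X (327 genes) and 8.40 on the autosomes (9773 genes), a difference of 0.21. The medians of the 19 autosomes ranged between 8.21 and 8.77, and 2 of them exceeded that of X, so X lay inside the range of the autosomes. Over all genes with no bound the difference was turned, at -0.12. On the Y chromosome 0 of 9 genes were above the bound, against 55.7% of all genes.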

How the data were processed

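RNA of 6 mouse ES cell cultures was measured on Affymetrix mouse genome arrays, of which the 2 wild type W4 arrays were used. The deposited values are linear intensities. By the design text of the series, the authors corrected background with GCRMA, applied quantile normalization, and used simpleaffy and limma at versions not given in the sources used here. Log2 of these intensities was taken here, 64 control probe sets were left out, and the brightest single-symbol probe set by W4 mean stood for each gene. GCRMA with quantile normalization brings both arrays close to 1 distribution, so global differences between the cultures cannot be read from these values. The 6 sample columns of a further table were not used. Gene symbols came from the platform annotation, checked against RefSeq (GRCm38.p6), as did promoters.

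Python 3.11.15, numpy 2.4.6 and pandas 2.3.3 were used, and the steps were tested on simulated data. No test was run and no p-value is given, since levels within W4 are a description. The genes and gene lists were chosen with earlier results of these data known. Named were the 20 brightest genes, the 10 brightest transcription factors, the 2 brightest members of each family described and, in families with over 3, the dimmest, all core and naive pluripotency genes, the 3 brightest genes of other lists and the 5 genes furthest apart between the arrays. Alternatives changed the bound, the probe set rule, the normalization and the arrays used. Probe sets with several symbols, or none listed, gave no gene level.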

Additional observations from a re-analysis of the deposited data

How the results depend on the processing

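No paired analysis was possible because the results come from no test and from the arrays of a single genotype. Levels were read from 2 arrays, probe sets bind with unequal strength, and levels at or below the bound have no order. The count of genes above the bound, 10126, was 15583 with the median of the silent families as bound and 16490 with a fixed log2 of 4, against 7441 with the 99th percentile of those families, 8342 with probe sets averaged and 8410 with plain probe sets only, and leaving out either array gave 10130 to 10154. The promoter CpG ratio of the highest decile minus that of the lowest, 0.57, came to 0.539 when probe sets of a gene were averaged, 0.549 with plain probe sets only and 0.178 among genes above the bound. The median level of X minus autosomes, 0.21, was 0.323 with the mean of probe sets, 0.269 with plain probe sets only, 0.218 to 0.220 without either array, and turned to -0.12 with no bound. Of families, 43 were led beyond the probe set spread, against 31 with its upper quartile as the spread. The causes of these changes were not tested, and no gene was over 2-fold apart between the arrays in any alternative run.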

Other observations

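Most subunits of the proteasome and of the chaperonin CCT were bright in W4 cells. Of 17 proteasome core genes 14 were in the top decile, against 10.0% of all genes. The median of the 17 was 12.06, and Psmb7 at 12.90, Psma2 at 12.83 and Psma3 at 12.79 were the brightest. The immunoproteasome subunits, named after their values were seen, were lower, with Psmb10 at 8.65, Psmb9 at 6.14 and Psmb8 at 5.98. Of 9 CCT genes 8 were in the top decile, again against 10.0% of all genes. Cct6a at 13.15, Cct2 at 13.09 and Cct3 at 13.05 were the brightest, and the remaining one, the testis form Cct6b, was at 5.03. Genes of threonine and one-carbon metabolism had 12 of 13 measured genes above the bound, against 55.7% of all genes, led by Ahcy at 12.41, Gcsh at 12.17 and Phgdh at 11.66.

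Next to Nanog on chromosome 6, the neighbours in RefSeq gene order Gdf3 (10.91 and 10.83 in replicates 1 and 2), Dppa3 (10.99 and 10.83) and Slc2a3 (13.03 and 13.03) were in the top decile as well. The flanking genes Apobec1 at 6.25 and Foxj2 at 7.19 were not. Among X and Y linked dosage genes, Ddx3x at 12.80, Eif2s3x at 12.20 and Usp9x at 9.57 were the brightest. Xist, named after its values were seen, had 8.06 and 8.40, with its dimmest probe set at 4.06.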
